A study of Arabidopsis thaliana with 20 samples.

Results

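CYN (AT3G23490) and CUTA (AT2G33740) are 2 nuclear genes of Arabidopsis thaliana, each reported by 1 row of an expression array. Their rows were found by name: a row was taken if its annotation lists exactly 1 gene and that gene is CYN or CUTA. This gave 2 of the 692 single-gene rows and of the 3439 rows in all, and no row lists either gene together with others. The rows themselves were chosen by gene name, but the pair was proposed after the intensities and ranks of these genes in atpc1-1 and WT had been seen. The differences between genotypes below are therefore descriptions and carry no test.

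CYN encodes cyanase, an enzyme that uses bicarbonate to break cyanate down to carbon dioxide and ammonia. Cyanate is toxic because it carbamylates proteins, and it forms from urea and from carbamoyl phosphate. The reaction consumes bicarbonate and releases an inorganic nitrogen compound, which places the enzyme beside carbonic anhydrases and nitrogen assimilation. CUTA encodes a chloroplast protein related to bacterial CutA, which was named in Escherichia coli for tolerance of divalent metal ions. CutA proteins form trimers with a fold like that of the PII nitrogen sensors, and the plant protein is known to bind copper. What CUTA does in the chloroplast is not settled.

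The 2 genotypes were atpc1-1, described in the labels as lacking the γ subunit of ATP synthase, and wild type (WT), both in ecotype Columbia 0 and both grown on MS medium, a mineral salt medium for plant culture. The γ subunit is the rotating central shaft of the chloroplast enzyme, which uses the proton gradient built up in the light to make ATP. Each genotype had 10 columns of total RNA, averaged to 5 replicates as described next. The labels give no plant age, tissue, type of mutation or number of plants behind a column. The array's one probe for ATPC1 also lists ATPC2, so the genotypes rest on the labels alone. In RNA from whole samples, fewer cells of a type and less RNA per cell cannot be told apart.

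The values are array intensities on a linear scale. The median intensity of a column was 0.130 to 0.224 in atpc1-1 and 0.339 to 0.493 in WT, and 5.70% to 20.8% of rows stood at 0 in atpc1-1 columns against 3.63% to 4.36% in WT columns. CYN and CUTA were above 0 in 10 of 10 columns of each genotype. Within each genotype every one of the 10 columns was most like its neighbour in number, by the correlation of deviations from the genotype mean over 1761 rows. These correlations were 0.00859 to 0.490 in atpc1-1 and 0.388 to 0.869 in WT, so that at least 1 atpc1-1 pair was almost uncorrelated. On this basis columns 1 and 2, 3 and 4 and so on were averaged and counted as 1 replicate. The labels do not say that the resulting 5 replicates per genotype come from separate plants, so spreads and p-values measure only the variation between these samples, which may be technical. Columns 9 and 10, which form replicate 5, had the lowest medians of their genotype, at 0.131 and 0.130 in atpc1-1 and at 0.339 and 0.347 in WT.

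Both genes were higher in atpc1-1 than in WT. CYN was 4.28-fold higher and CUTA was 2.82-fold higher after quantile normalisation, which gives all columns about the same distribution of values. Both were also higher on the deposited scale, where the typical row was lower in atpc1-1. Whether the genes differ from each other in transcript amount cannot be read from the array, because each is measured by its own probe.

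CYN ranged from 1.30 to 3.57 in the atpc1-1 columns, with a median of 2.22, against 0.495 to 1.18 in the WT columns, with a median of 0.686, in deposited intensity. The lowest atpc1-1 column thus lay above the highest WT column before any normalisation. Of all 3439 rows, 1.69% had all 10 atpc1-1 columns above all 10 WT columns on this scale. On the normalised log2 scale the CYN replicates 1 to 5 stood at 1.43, 0.72, 1.09, 0.85 and 1.71 in atpc1-1, and at -0.55, -1.47, -1.11, -1.56 and 0.01 in WT. The groups did not overlap, and replicate 5 was the highest of both.

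The mean log2 level of CYN was 1.16 ± 0.41 in atpc1-1 and -0.94 ± 0.66 in WT (SD, n = 5 each). The log2 difference was 2.10 (SE 0.35, from the limma fit over all rows), which is 2.29 above the median of all tested rows (-0.19). Of the 3298 tested rows, 96.8% had a smaller log2 difference than CYN, which was 106th from the top. Without WT replicate 5 the log2 difference of CYN was 2.34.

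CUTA ranged from 7.46 to 17.5 in the atpc1-1 columns, with a median of 9.27, against 2.07 to 7.62 in the WT columns, with a median of 2.78, in deposited intensity. The CUTA replicates 1 to 5 stood at 2.77, 3.24, 3.14, 3.14 and 3.53 in atpc1-1, and at 1.18, 1.14, 1.69, 1.51 and 2.84 in WT, on the normalised log2 scale. Here the groups overlapped through 1 replicate of each: WT replicate 5 lay just above atpc1-1 replicate 1. The other 4 WT replicates lay below every atpc1-1 replicate.

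The mean log2 level of CUTA was 3.17 ± 0.27 in atpc1-1 and 1.67 ± 0.69 in WT (SD, n = 5 each). The log2 difference was 1.49 (SE 0.34), which is 1.68 above the median of all tested rows. Of the tested rows, 93.3% had a smaller log2 difference than CUTA, which was 222nd from the top. Without WT replicate 5, the only WT replicate in the atpc1-1 range, the log2 difference of CUTA was 1.79.

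**Figure D1:**
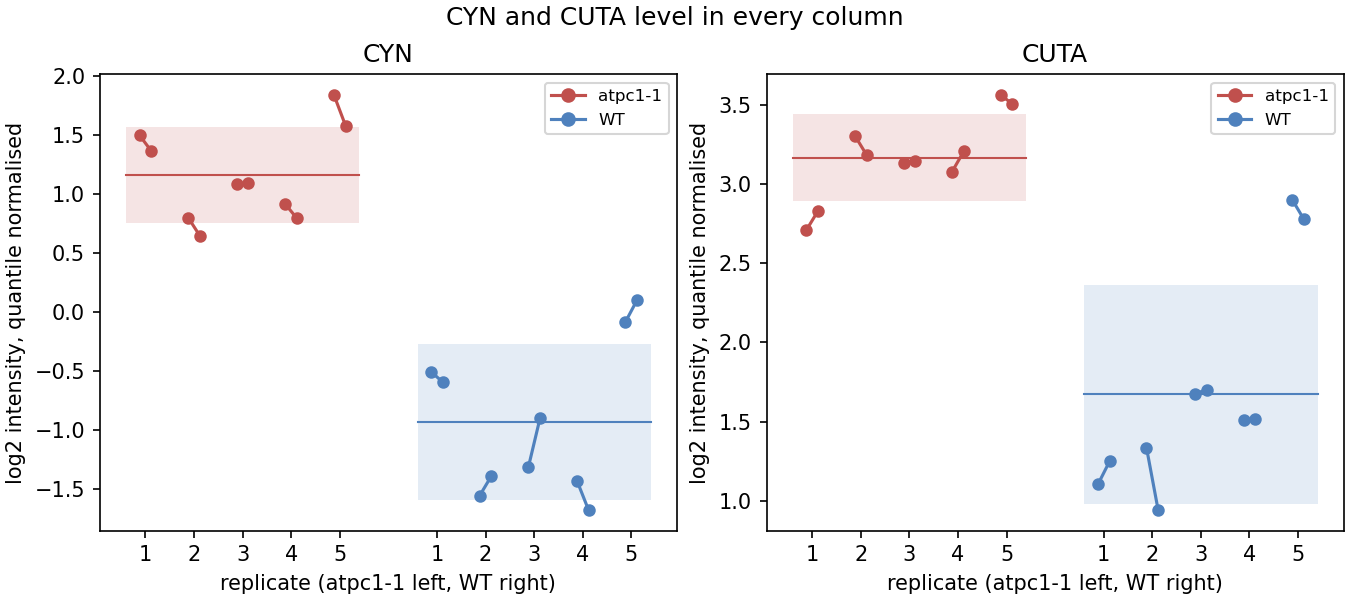
Quantile-normalised log2 intensity of CYN (left panel) and CUTA (right panel) in every column, with atpc1-1 on the left and WT on the right of each panel. Joined points are the 2 columns averaged to 1 replicate, lines are genotype means and bands are 1 SD over 5 replicates. CYN stood between 0.65 and 1.84 in the atpc1-1 columns and between -1.68 and 0.10 in the WT columns, while in CUTA the WT replicate 5 reached the atpc1-1 range.

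In the fit over all rows, 337 of 3298 rows were called higher in atpc1-1 at a limma adjusted p under 0.05, which is 10.2% of those tested, and 24.5% were called in either direction. Of the 665 tested rows with a single gene, 8.42% were called higher. CYN and CUTA were 2 of the rows called higher. Among the 2712 rows with a value in all 10 replicates, 6.71% had all 5 atpc1-1 replicates above all 5 WT replicates, CYN among them and CUTA not. The pair was chosen with this comparison known, so nothing is read from these counts.

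The place of a row in the brightness order of its own column does not depend on how the columns are scaled, and by this measure both genes stood higher in every atpc1-1 column than in any WT column. CYN was between the 147th and the 361st brightest row in atpc1-1 columns, with a median place of 235, against the 534th to the 1644th in WT columns, with a median place of 1190. CUTA was between the 37th and the 67th brightest row in atpc1-1 columns, with a median place of 48.5, against the 69th to the 301st in WT columns, with a median place of 200.5. The CUTA ranges came within 2 places of each other, between atpc1-1 column 1 and WT column 9. Of all rows, 4.89% had all 10 atpc1-1 columns above all 10 WT columns in percentile rank.

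As a percentile of all rows, CYN averaged 93.0 ± 2.20 in atpc1-1 and 67.5 ± 12.1 in WT (SD, n = 5 each), a difference of 25.5 percentile points. CYN was therefore a row of middle to upper brightness in WT and a bright row in atpc1-1. CUTA averaged the 98.6 percentile (SD 0.269, n = 5) in atpc1-1 and the 94.4 percentile (SD 2.26, n = 5) in WT, a difference of 4.21 points. CUTA was already bright in WT, which leaves little room above it on this scale. More rows stood at 0 in atpc1-1 than in WT. Among the 1761 rows above 0 in all columns the differences were 39.1 points for CYN and 7.99 points for CUTA. A point there covers fewer places than among all 3439 rows, so these values do not show a larger shift in place.

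**Figure D2:**
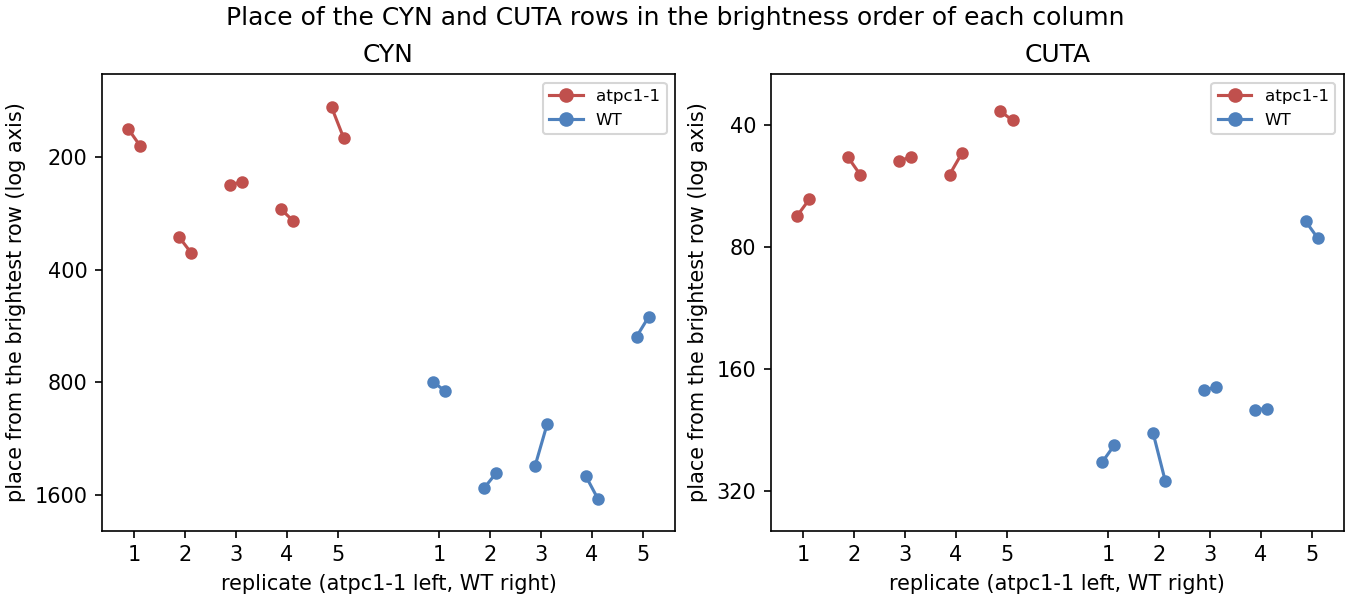
Place of the CYN row (left panel) and the CUTA row (right panel) counted from the brightest of 3439 rows in each column, on a log axis with the brightest at the top and with atpc1-1 left of WT. Joined points are the 2 columns averaged to 1 replicate. All atpc1-1 columns lie above all WT columns in both panels, with WT replicate 5 nearest to atpc1-1.

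Columns averaged to 1 replicate agreed closely for both genes. The gap between the 2 columns of a CYN replicate was at most 0.26 in atpc1-1 and at most 0.42 in WT on the log2 scale, against ranges between replicates of 0.99 in atpc1-1 and 1.57 in WT. For CUTA the gap was at most 0.13 in atpc1-1 and 0.39 in WT, against ranges between replicates of 0.76 in atpc1-1 and 1.70 in WT. The median of single gaps over all tested rows was 0.35 in atpc1-1 and 0.22 in WT. The largest gap of a row is a different measure, taken over tested rows with a value in every column of the genotype. It was smaller than that of CYN in 15.4% of rows in atpc1-1 and 33.4% in WT. For CUTA these shares were 3.39% in atpc1-1 and 30.8% in WT. Most of the spread of both genes thus lay between replicates and not between the columns within them.

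The residual SD of CYN in the fit was 0.549 and that of CUTA 0.527 on the log2 scale. Smaller residual SDs were found in 44.9% of tested rows for CYN and in 41.7% for CUTA, so both varied about as much as the middle of the array.

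Replicate 5 carried much of the spread of both genes in WT. Within atpc1-1 it was the farthest from the genotype mean in CYN, at 0.55, while in CUTA replicate 1 was farther, at -0.40 against 0.37. In atpc1-1, replicate 5 lay 0.69 above the mean of replicates 1 to 4 in CYN and 0.46 above it in CUTA, on the log2 scale. In WT it lay 1.18 above in CYN and 1.46 above in CUTA, that is 2.27-fold and 2.75-fold. The same measure over 2712 rows had a median of 0.12 in both genotypes. A lower value was found in 92.5% of rows for CYN and 96.6% for CUTA in WT, and in 79.9% for CYN and 69.7% for CUTA in atpc1-1. The lower medians of columns 9 and 10 move with this displacement, and their part in it was not tested.

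Whether CYN and CUTA vary together was asked within genotypes, on deviations from the genotype mean, so that the genotype difference does not enter. Over the 10 replicates Pearson's r was 0.590 (exact permutation within genotypes, two-sided, p = 0.144 over 14400 rearrangements) and Spearman's rho was 0.418 (exact permutation p = 0.298). This was the 1 relation tested, so adjustment leaves the p-values as they are. The permutation treats the genotypes as independent. CYN deviated in the same direction in both genotypes at every replicate number, so the 10 values may not be independent. The p-values make no allowance for that. The relation did not pass the test. It passed with columns centred on their median (r = 0.774, exact permutation p = 0.0212), which shifts both genes by the same amount within a column. On the deposited scale, without that shift, r was 0.573 (exact permutation p = 0.0956). The relation also passed with all 10 columns per genotype as replicates (r = 0.560, permutation p = 0.0279), where the columns of a pair are not independent. The value rested on WT replicate 5: without it r was -0.02 (exact permutation p = 0.959, n = 9), while without atpc1-1 replicate 5 r was 0.545 (exact permutation p = 0.276, n = 9). Without the 2 replicates farthest from the median of CYN, a choice that depends on CYN itself and removed replicate 5 of atpc1-1 and of WT, r was -0.478 (exact permutation p = 0.318, n = 8) and rho was -0.500 (exact permutation p = 0.262). No correlation is given for a single genotype, which has 5 replicates.

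The 2 genes went opposite ways in replicate 1. In both genotypes replicate 1 was above the genotype mean in CYN, by 0.27 in atpc1-1 and 0.39 in WT, and below it in CUTA, at -0.40 in atpc1-1 and -0.50 in WT. In replicate 5 both genes were above the mean in both genotypes. As a description, 88.8% of 2711 other rows had a lower within-genotype r with CYN than CUTA had, and 84.5% had a lower r with CUTA than CYN had. All rows share the same columns and scaling, and the median r of other rows was 0.02 with CYN and 0.08 with CUTA.

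**Figure D3:**
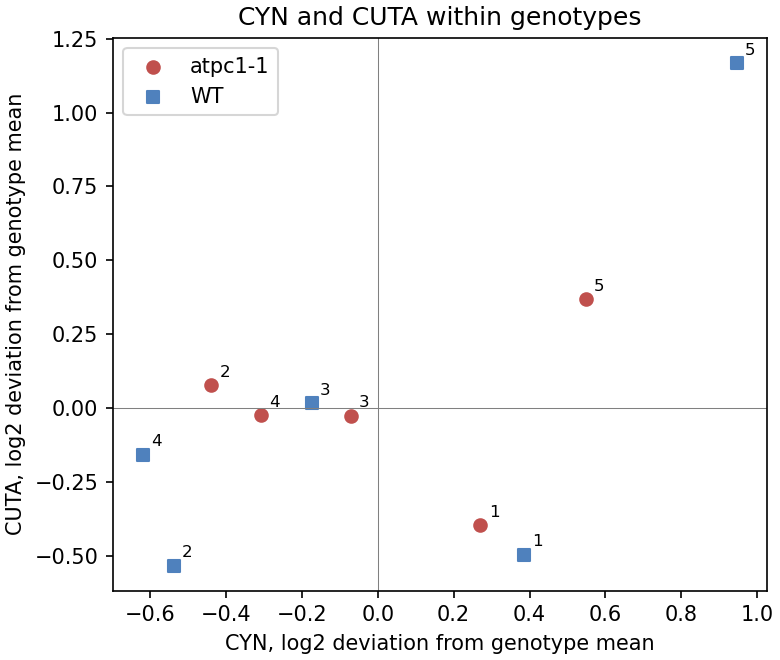
Log2 deviation of CUTA (vertical axis) against that of CYN (horizontal axis) from the genotype mean, with 1 point per replicate, numbered 1 to 5, circles for atpc1-1 and squares for WT. Replicate 5 of both genotypes lies at the upper right, and replicate 1 of both lies at the lower right.

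With the genotype difference left in, the patterns of the pair over the 10 replicates were alike at Pearson r = 0.900, a value that the genotype difference of both genes sets in large part. Among 523 other single-gene rows with a value in every replicate, CUTA was in 7th place in likeness to CYN, and CYN was in 13th place in likeness to CUTA. The rows most like CYN were AT2G21530 (r = 0.942), PIFI (r = 0.933) and AT3G54210 (r = 0.928). PIFI takes part in chlororespiration, the dark electron flow of thylakoids that runs through the NADH dehydrogenase-like complex. PIFI averaged -2.29 ± 0.93 in atpc1-1 and -4.98 ± 1.06 in WT on the normalised log2 scale (SD, n = 5 each).

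The log2 differences of AT2G21530 and AT3G54210 were 0.93 and 1.23. The rows most like CUTA were AT1G21660 (r = 0.981), AT4G27390 (r = 0.974) and AT1G62250 (r = 0.970), with log2 differences of 1.10, 1.35 and 2.12. In each of these 3 rows replicate 5 was the highest of both genotypes, as in CUTA. AT4G27390 stood at 1.95 in atpc1-1 replicate 5, against 1.15 to 1.33 in atpc1-1 replicates 1 to 4. Its WT replicate 5 was at 1.16, against -0.36 to -0.12 in WT replicates 1 to 4. The likenesses were picked as the highest of many and are given without a test.

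Genes around cyanate and copper were scarcely measured. Of 91 genes on 5 lists, 1 had a row of its own: none of 19 carbonic anhydrases, none of 24 genes of nitrogen assimilation and PII, none of 7 genes of cyanide detoxification and sulfur transfer, 1 of 31 genes of copper handling, and none of 10 markers of seeds, root hairs and flowers. A further 2 rows list a gene of these lists among several genes and are not described. The part of other organs in the RNA therefore could not be checked by these markers.

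The measured gene was CCS, the chaperone that loads copper onto copper/zinc superoxide dismutase. CCS was above 0 in 4 of 10 atpc1-1 columns and in 10 of 10 WT columns. Its normalised log2 level was -3.76, -2.70 and -2.92 in atpc1-1 replicates 2, 3 and 5, with replicates 1 and 4 at 0 in both columns, against -2.93, -2.07, -1.99, -2.46 and -4.03 in WT. The groups overlapped, and the log2 difference of -0.43 (SE 0.50) did not pass the test (limma adjusted p = 0.557). That fit drops the 2 atpc1-1 replicates without a value. With 4 atpc1-1 columns above 0, some of the 3 remaining replicate values rest on 1 column. CCS passed as lower on the deposited scale, at -1.82 (limma adjusted p = 0.0157; all rows had a median of -1.22 there), with mean scaling at -1.69 (limma adjusted p = 0.0236) and with zeros ranked at -1.38 (limma adjusted p = 0.0461).

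The size of the CYN and CUTA differences depended on the scaling, and their direction did not in the settings run. On the deposited scale the log2 differences were 1.57 (SE 0.33) for CYN and 1.67 (SE 0.37) for CUTA, while the median of all rows was -1.22. With columns centred on their median they were 2.73 (SE 0.40) and 2.84 (SE 0.47), with the median of all rows at -0.05. On these 2 scales CYN lay 2.78 above the typical row, and CUTA lay 2.89 above it. Quantile normalisation and cyclic loess, which treat bright and dim rows differently, put CUTA closer to the typical row, at 1.68 and 1.65 above it, and CYN at 2.29 and 2.10.

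**Figure D4:**
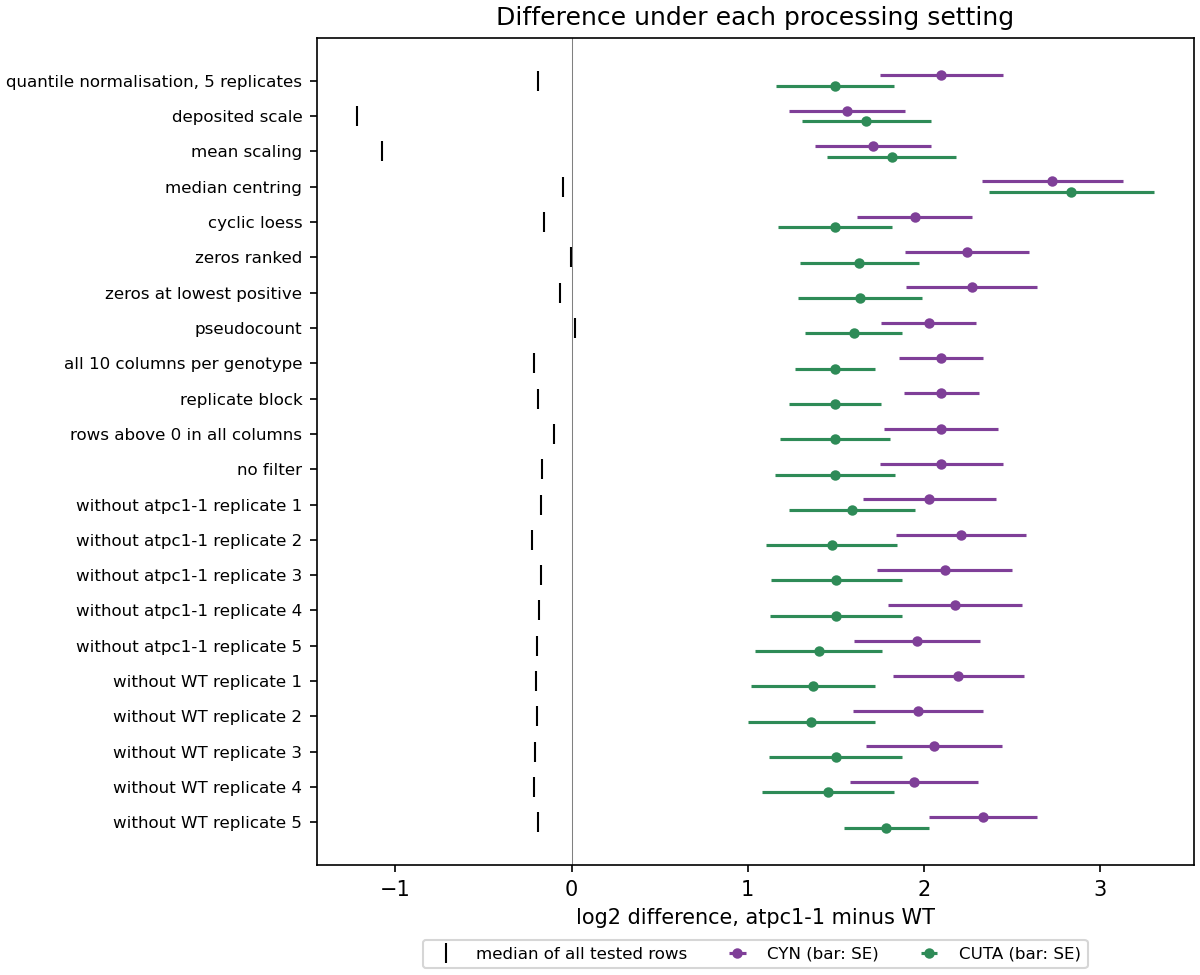
Log2 difference of CYN and CUTA, atpc1-1 minus WT, under each processing setting and with each replicate left out, as points with bars of 1 SE, beside the median difference of all tested rows as black ticks. CYN lay between 1.57 and 2.73 and CUTA between 1.36 and 2.84, to the right of the median of all rows in every setting shown.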

How the data were processed

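The authors deposited linear intensities, 1 column per sample, for 3439 rows. Their array type, background correction and scaling were not given in the sources used here. No intensity is below 0 and none exceeds 100. Rows were named through the platform annotation and RefSeq's gene table of TAIR10.1, which held 690 of 692 single genes. It was used for names only.

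Intensities were taken to log2 with 0 as missing and no pseudocount, then quantile normalised between columns (limma 3.58.1, R 4.3.3). The 2 columns of a replicate were averaged. Rows with at least 3 of 5 replicate values in each genotype were fitted (lmFit and eBayes, genotype as the only term) with Benjamini-Hochberg adjustment over all tested rows. The fit was also run on simulated data with independent replicates, which cannot check it for replicates that share a shift. Percentile ranks used the deposited intensities.

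The members, gene lists and settings were chosen with earlier results of these data known. Genes named besides the pair are the listed genes with a row of their own and, for each member, the 3 single-gene rows of highest Pearson r over the 10 replicates. The number of arrays limits the precision. Alternatives varied scaling, zeros, pseudocount, filter, column averaging, a replicate block and the replicates used.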

Additional observations from a re-analysis of the deposited data

Results flagged for a closer look

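In AT4G27390, the row second most like CUTA, replicate 5 stood far above the other replicates of its own genotype in both genotypes. Its gap to the nearest other replicate made up 0.772 of the whole range in atpc1-1 and 0.843 in WT. The row was named because its values follow those of CUTA, whose replicate 5 was also the highest of both genotypes, so a far replicate 5 is partly built into the choice and the usual chance rate of about 1 in 20 groups does not apply. Of 22 groups of replicates listed, 2 held a far replicate. The atpc1-1 group of CCS, with 3 values, is in that count but was too small to be checked. The count holds CYN and CUTA both by log2 level and by percentile rank.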

How the results depend on the processing

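CYN and CUTA stayed higher in atpc1-1 under all 21 alternatives run. The log2 differences moved by more than the replicate SD only with median centring, to 2.73 for CYN and 2.84 for CUTA. With a replicate left out they ranged from 1.94 to 2.34 and from 1.36 to 1.79. The rank differences moved only among the 1761 rows above 0 in all columns, to 39.1 and 7.99 points, where a point covers fewer places. The within-genotype correlation passed with median centring (r = 0.774, permutation p = 0.0212), which shifts both genes alike within a column. It also passed with all 10 columns as replicates (r = 0.560, permutation p = 0.0279), where partner columns are not independent. It ranged from -0.0203, without WT replicate 5, to 0.777 with a replicate left out. The 808 rows called became 2022 on the deposited scale (126 higher, 1896 lower), 1816 with mean scaling (150 higher, 1666 lower) and 1343 with all 10 columns (516 higher, 827 lower), against 337 higher and 471 lower with quantile normalisation. They ranged from 453 to 957 with a replicate left out: 476, 453, 461 and 478 without WT replicate 1, 2, 3 or 4. The share called higher, 41.7%, was 55.2% with median centring, 55.9% with zeros ranked, 59.7% with zeros at the lowest positive value and 53.0% with a pseudocount of 0.1. The cause of these shifts was not tested. Same-numbered replicates of the genotypes correlated at 0.0446 to 0.245, not above 0.1 in every pair, so the numbers were not taken to pair samples. Replicates 1, 2 and 5 correlated best with their own number in the other genotype, and replicates 3 and 4 did not. The CYN deviations of replicates 1 to 5 were 0.27, -0.44, -0.07, -0.31 and 0.55 in atpc1-1. In WT they were 0.39, -0.54, -0.17, -0.62 and 0.95, the same direction at every number. Those of CUTA differed in direction at replicates 2 and 3. Beyond these values, whether same-numbered replicates share an origin was not tested. The fit without a block and its SEs make no allowance for a shared origin. With the replicate block 730 rows were called. The differences were 2.10 for CYN and 1.49 for CUTA, which a block on the same replicates cannot change. Their SEs were 0.21 for CYN and 0.26 for CUTA with the block, against 0.35 and 0.34 without it. The correlation was not run with the block, which leaves 5 values.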
